A study of Mus musculus with 6 samples.

Results

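The genes described here belong to the hypoxia response and to glycolysis, and 40 genes are members, of the 52636 gene rows in the count table. They were selected on symbol from a list proposed with results of this same genotype contrast known. Their differences between genotypes, and the calls given for members and their lists, are therefore a description and no independent test. The members comprise 3 carriers of glucose or lactate, 17 glycolytic enzymes, 3 control enzymes outside the chain, 2 alpha subunits of the hypoxia-inducible factors (HIFs) and 15 HIF targets outside glycolysis. All 40 members passed the filter on low counts, as did 17849 genes in all.

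RNA was sequenced from mouse embryoid bodies (EBs), aggregates in which embryonic stem (ES) cells begin to differentiate. WT EBs were made from the parental E14 ES cell line, and Tnfaip2-/- EBs from 1 E14 clone in which Cas9 editing disrupted the gene. Both groups spent 3 days in hanging drops of ES cell medium, which contains leukemia inhibitory factor, and then 3 days of differentiation on gelatin in MEF medium, whose listed components do not include it. Each group had 3 replicates, with total counts from 22489903 to 23804489 in WT EBs and from 21765931 to 22480962 in Tnfaip2-/- EBs. With 1 line per genotype, an effect of the mutation and a difference between clones cannot be told apart. The replicates are described as biological, but the sources used here do not say how far they were separate cultures, so the errors measure the spread between these samples only. In variance, that spread was 1.40 to 2.09 times counting noise (chi-square over degrees of freedom for pairs of replicates within a genotype). Across genotypes the value was 56.8 to 60.9, in both cases for genes with a mean of at least 50 counts.

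Cells split glucose into pyruvate by glycolysis and can reduce pyruvate to lactate, which regenerates the cofactor that glycolysis needs. HIFs pair an oxygen-regulated alpha subunit with ARNT and bind a short core motif near genes for glucose uptake, glycolysis, vessel growth, collagen modification and mitophagy. In normal oxygen, prolyl hydroxylases mark the alpha subunits for VHL-dependent degradation, so much of their control acts on protein, which RNA counts do not measure.

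Tnfaip2 itself had 7, 4 and 7 counts in WT EBs and 0, 2 and 2 counts in Tnfaip2-/- EBs. All Tnfaip2-/- samples lay below all WT samples, but these counts are too few to be tested and check the labels only weakly. An edited allele can also still be transcribed.

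Among the 40 members, 30 were called higher in Tnfaip2-/- EBs versus WT EBs and 5 were called lower, where called means that the quasi-likelihood test of edgeR gave an adjusted p under 0.05. Across all tested genes, 34.0% were called higher and 33.7% lower, or 67.7% in either direction. The groups did not overlap in 34 members, against 69.4% of all tested genes. The median log2 fold change was 0.32 over the members and 0.003 over all tested genes. Because the members were chosen by results of this contrast, nothing is read from these counts.

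**Figure D1:**
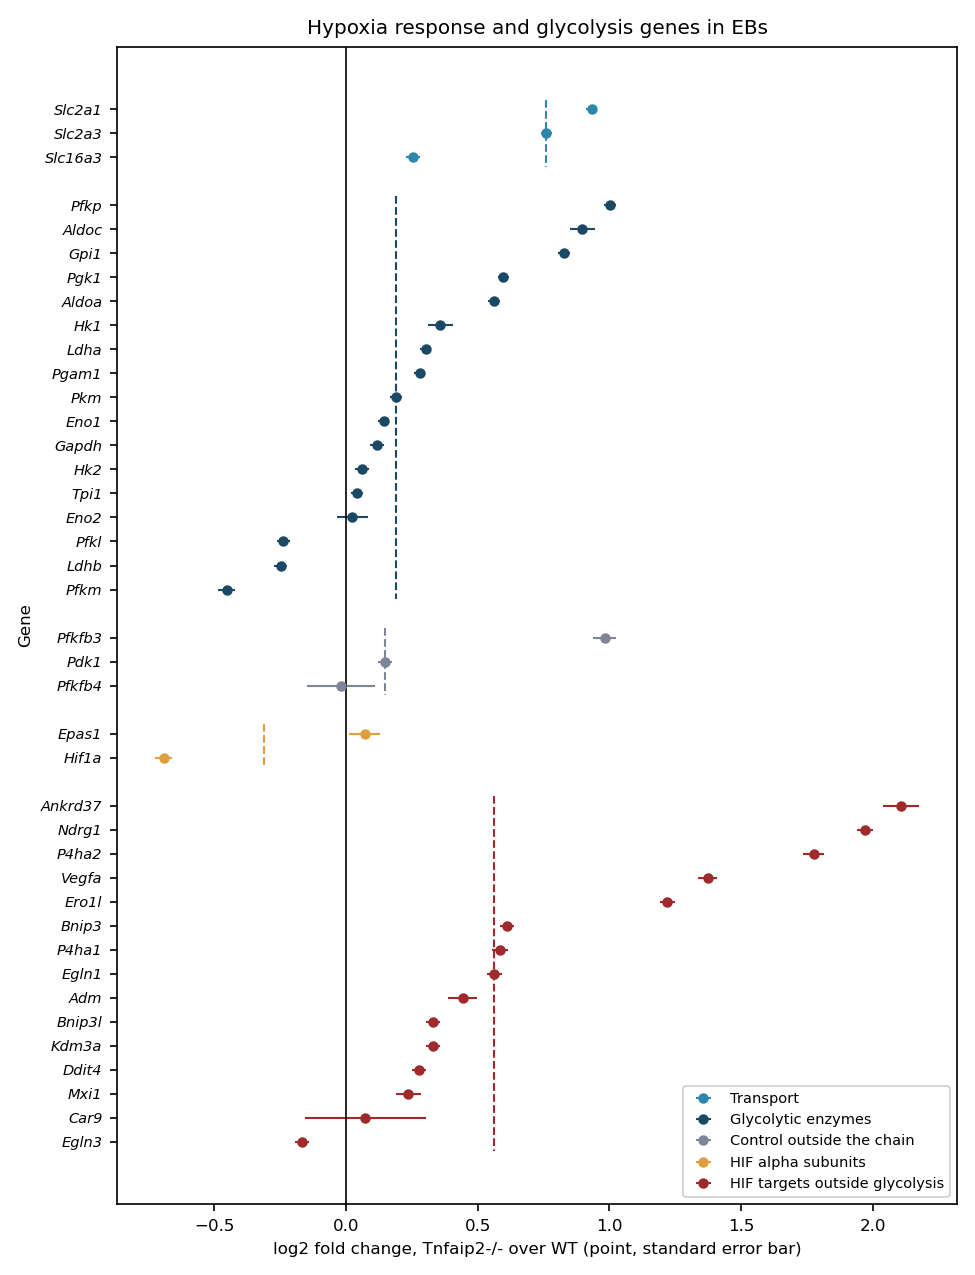
Log2 fold change of each of the 40 members (x axis, Tnfaip2-/- over WT, n = 3 per group), grouped by role, with standard errors as bars and the median of each role as a dashed line. HIF targets outside glycolysis reach 2.11, whereas the glycolytic enzymes lie between -0.45 and 1.00.

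Levels are given as counts per 1000000 counts (CPM) after scaling by edgeR's TMM method, in the order of replicates 1, 2 and 3. Slc2a1, which encodes the glucose carrier GLUT1 (chr4:119108711-119137983, GRCm38), measured 1433, 1462 and 1405 CPM in WT EBs and 2730, 2719 and 2755 CPM in Tnfaip2-/- EBs. Every Tnfaip2-/- sample was above every WT sample, with a log2 fold change of 0.93 (SE 0.0222). Slc2a3, the gene of the high-affinity carrier GLUT3, measured 2667, 2675 and 2646 CPM in WT EBs and 4484, 4487 and 4557 CPM in Tnfaip2-/- EBs. The groups were again separate, and its log2 fold change was 0.76 (SE 0.0214). Slc16a3, which encodes the lactate exporter MCT4, was nearest to 0 of the carriers, with a log2 fold change of 0.25 (SE 0.0253). The summed level of the carriers was 4525, 4556 and 4452 CPM in WT EBs and 7698, 7704 and 7815 CPM in Tnfaip2-/- EBs, a ratio of 1.72.

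Promoter windows of 300 bases, from 250 before to 50 after the start of transcription, were taken from RefSeq (GRCm38.p6) and searched on both strands for the HIF core motif, spelled ACGTG or GCGTG. The palindrome CACGTG, which other factors also bind, contains ACGTG on each strand and counts as 2 matches. Of the 40 members, 36 had an entry, and Slc2a3, Epas1, Bnip3l and Ndrg1 had none. A match was present in 42 of the 54 windows of members (77.8%) and in 43.8% of the 32851 windows of all genes. The windows of members were also richer in G and C, with a median of 62.2% against 52.7%, and the part of base composition in the difference was not tested. The share was 77.8% for HIF targets outside glycolysis and 75% for glycolytic enzymes. Among other metabolic lists, the share was 72.2% for the tricarboxylic acid cycle, 66.7% for pyruvate entry into mitochondria, 66.7% for the pentose phosphate pathway, 62.5% for glycogen and gluconeogenesis and 50% for further glycolytic isozymes and carriers. It was 77.4% for further HIF targets and 61.5% for HIF pathway components. With ACGTG alone, the share was 66.7% for HIF targets outside glycolysis, 42.9% for glycolytic enzymes and 19.6% for all windows. It was 56.2% for glycogen and gluconeogenesis, 44.4% for the tricarboxylic acid cycle, 38.7% for further HIF targets and 33.3% for pyruvate entry. Further glycolytic isozymes and carriers had 26.9%, HIF pathway components 15.4% and the pentose phosphate pathway 11.1%. These differences were not tested. A match is a run of letters and no evidence of binding. The window of Slc2a1, the carrier with the largest difference, was taken by name and holds 2 matches, in capitals (chr4:119108495-119108794, forward strand).
Slc2a1: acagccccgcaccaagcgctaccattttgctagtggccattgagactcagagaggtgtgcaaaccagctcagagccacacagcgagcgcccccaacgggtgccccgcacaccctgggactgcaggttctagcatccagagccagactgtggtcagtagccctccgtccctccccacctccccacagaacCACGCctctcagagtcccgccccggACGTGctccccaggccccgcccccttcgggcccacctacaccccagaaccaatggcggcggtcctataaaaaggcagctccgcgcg

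Along the chain from glucose to lactate, 12 of the 17 enzymes were called higher, 3 lower and 2 neither way, against 34.0% higher and 33.7% lower of all tested genes. The choice of members used this contrast, so nothing is read from that count. Against a 1.2-fold change, 7 were called higher and 1 lower. The shares of 34.0% and 33.7% do not apply to that test, which called fewer of all tested genes (counts in the last section). Nothing is read from these counts either. Pfkp, the platelet-type phosphofructokinase, measured 360.2, 378 and 360.4 CPM in WT EBs and 727, 739 and 733 CPM in Tnfaip2-/- EBs. No samples of the groups overlapped, and the log2 fold change of 1.00 (SE 0.0245) was the largest among the enzymes. Gpi1, which interconverts glucose and fructose phosphates, measured 968, 979 and 953 CPM in WT EBs and 1695, 1729 and 1724 CPM in Tnfaip2-/- EBs. All Tnfaip2-/- samples were higher, with a log2 fold change of 0.83 (SE 0.0224). Of its 51-base windows, the read length, 15.6% also occur in other genes, so part of its count is uncertain. The antisense gene Gm26762 overlaps 11.5% of its exon bases, with at most 20 counts per sample.

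The aldolases cleave fructose bisphosphate into triose phosphates. Aldoc measured 28.7, 25.6 and 26.6 CPM in WT EBs and 51.1, 49.4 and 50.3 CPM in Tnfaip2-/- EBs. Its groups were separate, with a log2 fold change of 0.90 (SE 0.0474). Aldoa, the abundant form, measured 2524, 2453 and 2440 CPM in WT EBs and 3571, 3721 and 3651 CPM in Tnfaip2-/- EBs. It was higher in every Tnfaip2-/- sample, with a log2 fold change of 0.56 (SE 0.0223).

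Pgk1, which yields ATP after the triose steps of the chain, measured 1427, 1409 and 1439 CPM in WT EBs and 2162, 2166 and 2138 CPM in Tnfaip2-/- EBs. The groups lay far apart relative to their spread, with a log2 fold change of 0.60 (SE 0.0218). More than any other member, Pgk1 shares sequence with other genes, at 53.8% of its windows. Only reads with a single position in the genome were counted, so reads from such windows may be missing, and how reads over several genes were treated is not given in the sources used here. The rows of genes that share its windows also held counts. Pgk1-rs7 had means of 382 CPM in WT EBs and 558 CPM in Tnfaip2-/- EBs, and Gm5537 had 381 and 563 CPM. Which gene those reads came from was not tested. Ldha, which reduces pyruvate to lactate, measured 1983, 1975 and 2016 CPM in WT EBs and 2446, 2472 and 2449 CPM in Tnfaip2-/- EBs. Its groups were separate too, with a smaller log2 fold change of 0.30 (SE 0.0216).

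The other 11 enzymes had log2 fold changes between -0.45 and 0.36, of which 6 were called higher and 3 lower. Those lower were the phosphofructokinases Pfkm, at -0.45 (SE 0.0321), and Pfkl, at -0.24 (SE 0.0238), and the lactate dehydrogenase Ldhb, at -0.25 (SE 0.0248). Nearest to 0 were Eno2, at 0.02 (SE 0.0589), and Tpi1, at 0.04 (SE 0.0235), whose groups overlapped. Tpi1 was called higher with upper quartile factors (0.07) or library totals (0.07). Gapdh was called higher at 0.12 (SE 0.027), yet Tnfaip2-/- replicate 1, at 2262 CPM, lay below WT replicate 1, at 2283 CPM. The call of Hk2, at 0.06 (SE 0.027), was lost when any of the 6 samples was left out, with values from 0.03 to 0.06, and also with DESeq2 (0.05), without the filter (0.04) or with RLE factors (0.06). As the choice of members used this contrast, calls of single members, kept or lost, are description only. Windows shared with other genes also made up 36.1% of Pgam1, 25.9% of Eno1, 25.4% of Pkm, 25% of Gapdh and 20.4% of Ldhb. Rows of such genes held counts as well. Means in WT EBs were 289 CPM for Pgam1-ps2, 1111 CPM for Eno1b (Eno1) and 443 CPM for Gm6560 (Pkm). They were 332 CPM for Gm7336 (Gapdh) and 19.0 CPM for Gm5514 (Ldhb). Other genes on the same strand overlap 15.3% of the exon bases of Pkm (Gm49759) and 10.2% of those of Pfkm (Gm26513), which makes these levels uncertain as well.

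The promoter windows of 4 enzymes are shown. Pfkp and Gpi1 were taken for the size of their differences, and Pgk1 and Ldha by name. Aldoc, also taken for its size, has at most 3 matches in a window and is not shown. Pfkp has 4 matches (chr13:6648722-6649021, reverse strand) and Pgk1 has 2 (chrX:106186850-106187149, forward strand). Ldha has 7 matches in the window shown (chr7:46845554-46845853, forward strand), of which 4 come from a pair of CACGTG palindromes. The letters of the motif are not in the Gpi1 window (chr7:34230287-34230586, reverse strand).
Pfkp: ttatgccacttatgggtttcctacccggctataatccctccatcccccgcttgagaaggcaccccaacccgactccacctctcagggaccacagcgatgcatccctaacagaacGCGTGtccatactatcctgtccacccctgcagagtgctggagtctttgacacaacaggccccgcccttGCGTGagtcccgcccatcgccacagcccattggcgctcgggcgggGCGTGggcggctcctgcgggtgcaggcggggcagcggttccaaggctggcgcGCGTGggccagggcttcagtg
Pgk1: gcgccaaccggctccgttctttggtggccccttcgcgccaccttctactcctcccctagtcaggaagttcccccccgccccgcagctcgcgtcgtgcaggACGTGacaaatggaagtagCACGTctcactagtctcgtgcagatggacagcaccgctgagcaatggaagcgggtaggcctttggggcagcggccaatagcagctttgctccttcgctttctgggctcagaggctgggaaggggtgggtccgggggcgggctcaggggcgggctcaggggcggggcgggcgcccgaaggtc
Ldha: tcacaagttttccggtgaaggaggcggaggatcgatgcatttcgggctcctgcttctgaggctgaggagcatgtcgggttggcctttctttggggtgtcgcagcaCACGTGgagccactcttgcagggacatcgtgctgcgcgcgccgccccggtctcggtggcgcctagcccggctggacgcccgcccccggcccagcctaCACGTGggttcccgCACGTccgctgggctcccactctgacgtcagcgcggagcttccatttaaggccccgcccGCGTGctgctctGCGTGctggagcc
Gpi1: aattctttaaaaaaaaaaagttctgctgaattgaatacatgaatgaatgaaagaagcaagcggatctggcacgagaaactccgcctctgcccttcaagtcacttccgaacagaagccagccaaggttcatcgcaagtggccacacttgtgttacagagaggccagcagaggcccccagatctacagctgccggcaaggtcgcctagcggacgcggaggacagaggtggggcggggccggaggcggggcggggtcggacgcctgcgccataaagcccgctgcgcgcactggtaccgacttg

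Levels can be compared between isozymes per kilobase (kb) of annotated exon. The 3 phosphofructokinases summed to 153, 155 and 153 CPM per kb in WT EBs and 156, 158 and 158 CPM per kb in Tnfaip2-/- EBs, a ratio of 1.02. Within this sum the share of Pfkp was 17.8% ± 0.342 (SD, n = 3) in WT EBs and 34.7% ± 0.204 in Tnfaip2-/- EBs. The share of Pfkl was 58.2% ± 0.612 in WT EBs and 48.2% ± 0.509 in Tnfaip2-/- EBs. These values depend on exon length, which is 13401 bases for Pfkp, 6675 for Pfkl and 3340 for Pfkm. Without division by length, the phosphofructokinases summed to 1086 CPM in WT EBs and 1330.0 CPM in Tnfaip2-/- EBs, a ratio of 1.22, and the CPM share of Pfkp was 33.7% and 55.1%. On both scales the share of Pfkp was higher and that of Pfkl lower in Tnfaip2-/- EBs, whereas the ratio of the sums differed between the scales. Per kb of exon, Ldha made up 69.2% ± 0.234 of lactate dehydrogenase in WT EBs and 76.7% ± 0.11 in Tnfaip2-/- EBs (82.6% and 87.4% in CPM). Of the 11 steps, the isomerase step of Gpi1 had the highest ratio of Tnfaip2-/- to WT, at 1.78. These comparisons within steps were chosen after the values were seen.

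**Figure D2:**
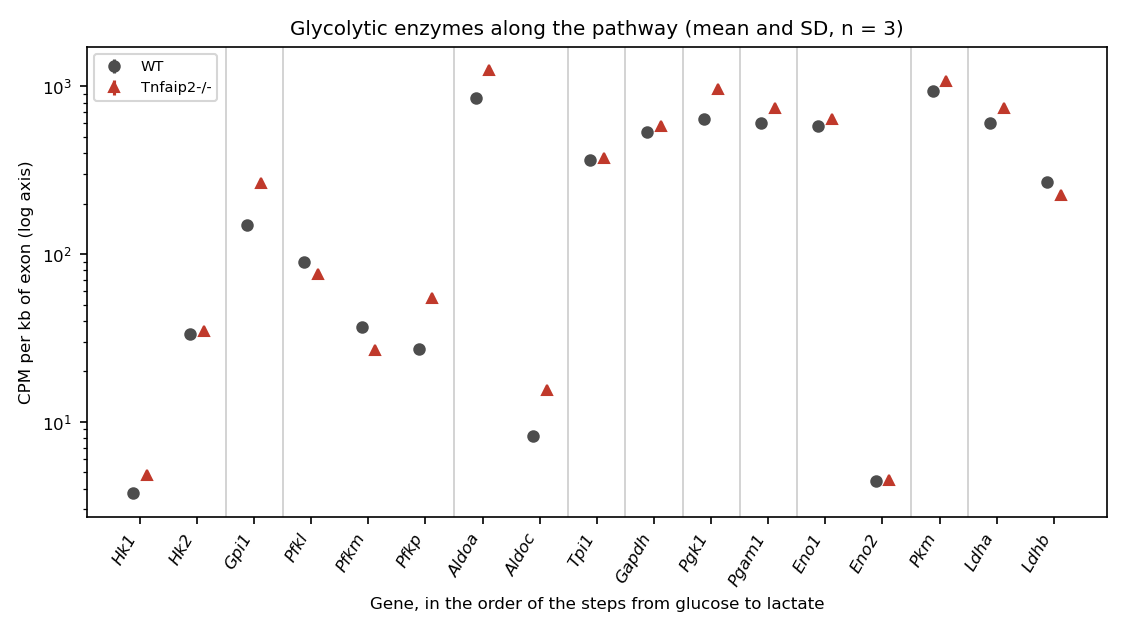
Level of each glycolytic enzyme in CPM per kb of exon (log axis, mean with SD, n = 3, most bars smaller than the symbols), in the order of the steps, with grey lines between steps. Pfkp is higher and Pfkl and Pfkm are lower in Tnfaip2-/- EBs.

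Among the control enzymes, Pfkfb3, which makes the activator of phosphofructokinase, measured 35.6, 34.9 and 33.4 CPM in WT EBs and 65.0, 68.1 and 72.2 CPM in Tnfaip2-/- EBs. The groups were separate, with a log2 fold change of 0.98 (SE 0.0439). Pdk1, which restrains pyruvate entry into mitochondria, had a log2 fold change of 0.15 (SE 0.0253). Pfkfb4, a relative of Pfkfb3, was at -0.02 (SE 0.13) with overlapping groups and a mean of 3.89 CPM in WT EBs.

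Hif1a, which encodes the main alpha subunit, measured 123, 123 and 123 CPM in WT EBs and 78.3, 76.1 and 74.6 CPM in Tnfaip2-/- EBs. It was lower in every Tnfaip2-/- sample, the reverse of most HIF targets, with a log2 fold change of -0.69 (SE 0.0326). Epas1, the gene of HIF2 alpha, measured 20.5, 19.7 and 20.3 CPM in WT EBs and 21.83, 20.1 and 21.5 CPM in Tnfaip2-/- EBs. Its groups overlapped, with a log2 fold change of 0.07 (SE 0.059). The Hif1a window is shown as that of a member lower in Tnfaip2-/- EBs, and its 3 matches include a CACGTG palindrome (chr12:73907617-73907916, forward strand).
Hif1a: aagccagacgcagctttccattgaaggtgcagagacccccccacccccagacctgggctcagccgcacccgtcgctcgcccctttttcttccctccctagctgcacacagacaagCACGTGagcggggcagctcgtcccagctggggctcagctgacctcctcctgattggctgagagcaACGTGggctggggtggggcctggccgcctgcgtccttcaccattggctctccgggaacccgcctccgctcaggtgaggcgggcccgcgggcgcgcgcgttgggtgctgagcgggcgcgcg

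The prolyl hydroxylases Egln1 and Egln3, themselves HIF targets, differed in opposite directions. Egln1 measured 147, 149 and 144 CPM in WT EBs and 218, 215 and 217 CPM in Tnfaip2-/- EBs. It was higher in all Tnfaip2-/- samples, with a log2 fold change of 0.56 (SE 0.0276). Egln3 measured 199, 207 and 203 CPM in WT EBs and 176, 181 and 184 CPM in Tnfaip2-/- EBs. It was lower in all Tnfaip2-/- samples, with a log2 fold change of -0.17 (SE 0.0279).

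Of the 15 HIF targets outside glycolysis, 13 were called higher and 1 lower, against the same 34.0% and 33.7% of all tested genes, and again nothing is read from the count. Against a 1.2-fold change, 11 were called higher and 0 lower. That test also called fewer of all tested genes (counts in the last section), so the shares above do not apply to it. Ankrd37, an ankyrin repeat gene, measured 7.06, 7.55 and 8.47 CPM in WT EBs and 31.8, 34.7 and 33.1 CPM in Tnfaip2-/- EBs. No samples overlapped, and its log2 fold change of 2.11 (SE 0.0687) was the largest of the members. Genes on the opposite strand, Ufsp2 and Lrp2bp, overlap 26.4% of its exon bases, and the library kit does not mark strand, so their reads cannot be told apart there. Ufsp2 was not called (log2 fold change 0.10, SE 0.0478) and Lrp2bp had at most 11 counts per sample.

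Ndrg1, a stress-responsive gene, measured 72.9, 70.6 and 71.5 CPM in WT EBs and 275, 283 and 286 CPM in Tnfaip2-/- EBs. All Tnfaip2-/- samples were far above WT, with a log2 fold change of 1.97 (SE 0.0301). P4ha2, a catalytic subunit of collagen prolyl hydroxylase, measured 31.5, 31.2 and 28.5 CPM in WT EBs and 104, 104 and 104 CPM in Tnfaip2-/- EBs. Its groups were separate, with a log2 fold change of 1.77 (SE 0.0404). P4ha1, the other catalytic subunit listed, measured 98.9, 101 and 96.6 CPM in WT EBs and 146, 148 and 150.1 CPM in Tnfaip2-/- EBs. The direction was the same in a smaller size, with a log2 fold change of 0.59 (SE 0.0306).

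Vegfa, the vascular growth factor, measured 48.6, 47.7 and 45.7 CPM in WT EBs and 121, 121 and 126 CPM in Tnfaip2-/- EBs. The groups were separate, with a log2 fold change of 1.37 (SE 0.0361). Ero1l, an oxidase of protein folding, measured 147, 143 and 143 CPM in WT EBs and 339, 328 and 340.4 CPM in Tnfaip2-/- EBs. All Tnfaip2-/- samples were higher, with a log2 fold change of 1.22 (SE 0.0272). Bnip3, a mitophagy receptor, measured 173, 172 and 176 CPM in WT EBs and 268, 264 and 264 CPM in Tnfaip2-/- EBs. Its groups did not overlap, with a log2 fold change of 0.61 (SE 0.0265), although 46.6% of its windows also occur in other genes. Its antisense neighbour Gm45507, over 22.3% of its exon bases, had at most 1 count per sample. The other 6 targets had log2 fold changes between 0.07 and 0.44, of which 5 were called higher. Shared windows made up 20.6% of Bnip3l, which was among them, and 16.8% of Ankrd37. Car9, a carbonic anhydrase often used as a hypoxia marker, was the exception at 0.07 (SE 0.23), with a mean of 1.14 CPM in WT EBs and 1.197 CPM in Tnfaip2-/- EBs.

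The windows of 3 targets are shown because these had the largest differences among targets with an entry. Ankrd37 (chr8:45999801-46000100, reverse strand) and P4ha2 (chr11:54100674-54100973, forward strand) have 4 matches each. Vegfa has none in the window shown (chr17:46032328-46032627, reverse strand) and 2 in its other window.
Ankrd37: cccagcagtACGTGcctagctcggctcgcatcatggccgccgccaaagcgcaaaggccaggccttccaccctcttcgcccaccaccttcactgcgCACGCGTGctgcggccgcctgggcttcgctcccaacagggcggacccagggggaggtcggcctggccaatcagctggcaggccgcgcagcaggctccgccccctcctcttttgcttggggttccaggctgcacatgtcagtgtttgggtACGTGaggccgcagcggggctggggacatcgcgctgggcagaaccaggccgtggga
P4ha2: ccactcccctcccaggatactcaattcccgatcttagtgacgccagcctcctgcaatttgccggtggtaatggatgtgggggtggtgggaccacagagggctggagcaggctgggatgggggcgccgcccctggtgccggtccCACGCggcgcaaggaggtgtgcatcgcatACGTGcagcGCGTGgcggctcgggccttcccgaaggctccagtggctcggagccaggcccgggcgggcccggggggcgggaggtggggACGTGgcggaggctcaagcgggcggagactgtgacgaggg
Vegfa: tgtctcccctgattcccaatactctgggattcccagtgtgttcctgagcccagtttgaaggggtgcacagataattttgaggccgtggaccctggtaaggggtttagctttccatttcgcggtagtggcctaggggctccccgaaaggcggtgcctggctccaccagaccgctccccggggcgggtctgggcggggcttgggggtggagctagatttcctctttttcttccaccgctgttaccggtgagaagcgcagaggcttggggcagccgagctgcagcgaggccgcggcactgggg

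**Figure D3:**
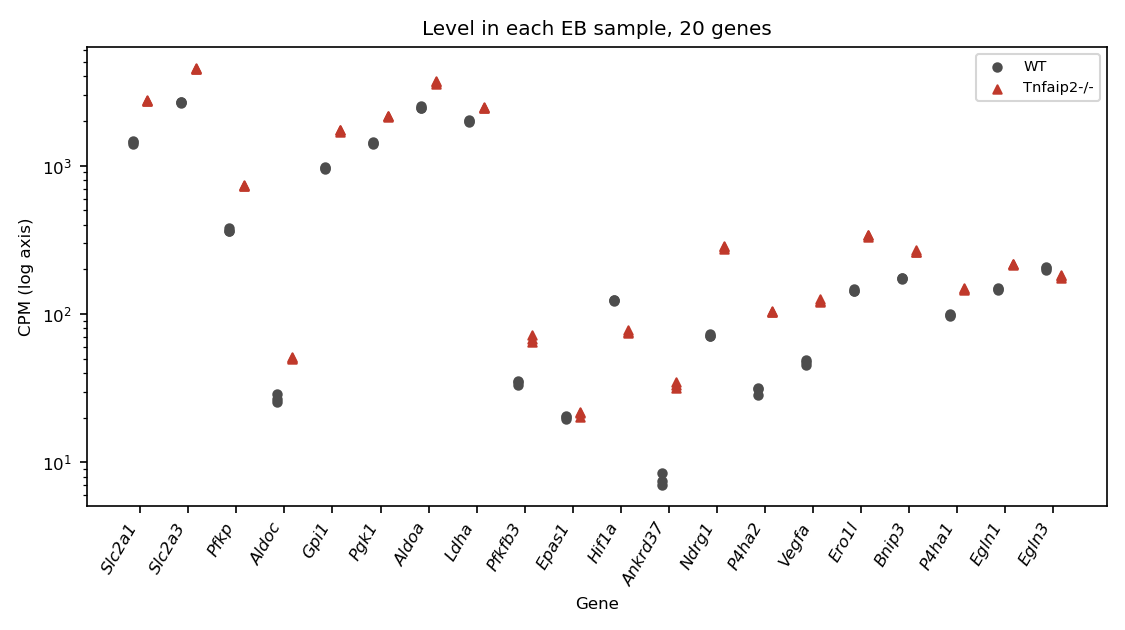
CPM in each sample (log axis) for the 20 members given by sample, with WT as grey circles and Tnfaip2-/- as red triangles, 3 of each per gene. Hif1a and Egln3 are lower in Tnfaip2-/- EBs, Epas1 overlaps, and the others are higher.

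HIF targets outside glycolysis had a median log2 fold change of 0.56, against 0.19 for glycolytic enzymes, a difference of 0.37. At least 2-fold higher were 5 of the 15 targets and 1 of the 17 enzymes, against 7.46% of all tested genes. The targets summed to 1823, 1813 and 1795 CPM in WT EBs and 2764, 2772 and 2813 CPM in Tnfaip2-/- EBs, a ratio of 1.54. The enzymes summed to 21100, 20700 and 20840 CPM in WT EBs and 25290, 25990 and 25750 CPM in Tnfaip2-/- EBs, a ratio of 1.23. In both lists the sums of all Tnfaip2-/- samples exceeded those of all WT samples. The difference between the lists was not tested, as both were chosen with results known.

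**Figure D4:**
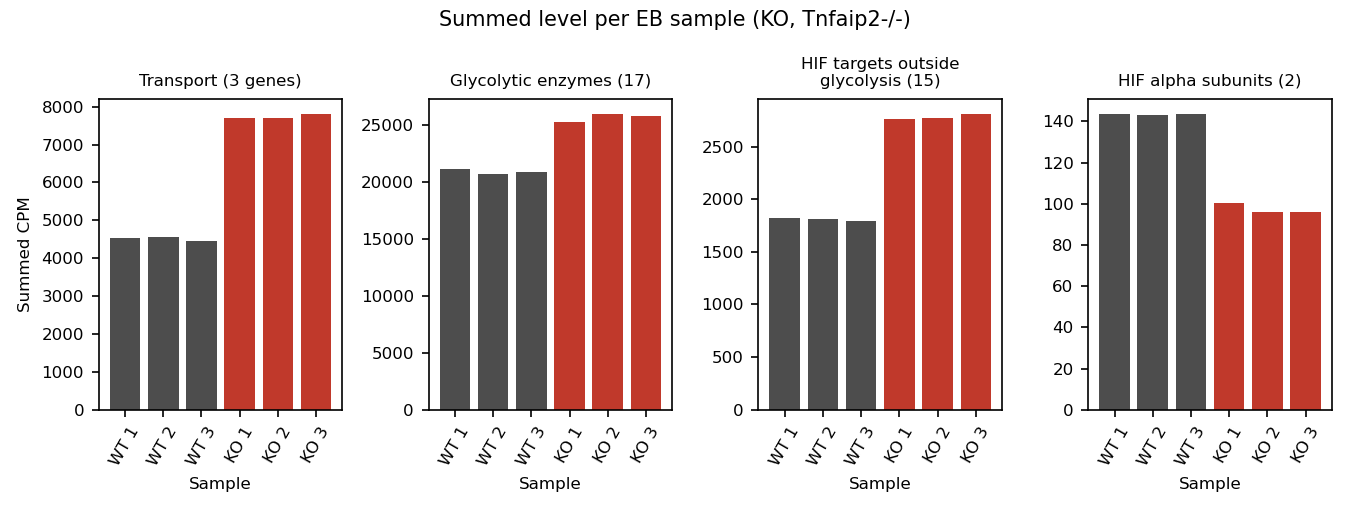
Summed CPM of 4 lists in each sample (bars from 0, 1 bar per sample, KO standing for Tnfaip2-/-). Transport, enzymes and HIF targets are higher in Tnfaip2-/- EBs, and the HIF alpha subunits are lower.

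Other genes of these pathways were tested in the same edgeR fit, with p adjusted over all 17849 genes. Of 15 HIF pathway components and regulators, 6 rose and 8 fell. Across all tested genes 34.0% rose and 33.7% fell, 67.7% together, and the counts of this and the following lists stand beside those shares. Against a 1.2-fold change, 3 of the components rose and 5 fell. For such counts, here and in the lists below, those shares do not apply. The 1.2-fold test called fewer of all tested genes, as counted in the last section. Siah2, a ubiquitin ligase, rose by a log2 fold change of 0.69 (SE 0.0874, adjusted p = 1.9e-09), Vhl by 0.43 and Cul2 by 0.42. The competitor for coactivators Cited2 changed by -1.22 (SE 0.0399, adjusted p = 1.32e-29), Hif3a by -0.81 and Arnt2 by -0.69. Of 30 further HIF targets tested, from 31 listed, 19 rose and 6 fell, with a median of 0.46. Cox4i2 rose by 1.90 (SE 0.161, adjusted p = 1.94e-14) and Car12 by 1.76. Rragd changed by -1.28, Cited2, which is also in this list, by -1.22 and Bhlhe40 by -0.22. Of these targets 2 fell against a 1.2-fold change.

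Of 19 further glycolytic isozymes and carriers tested, from 23 listed, 7 rose and 5 fell, and 4 rose with DESeq2 or against a 1.2-fold change. Pfkfb1 rose by 1.27 and Pfkfb2 by 0.77. The carrier genes Slc2a4 and Slc16a1 changed by -1.49 and -0.69, and Galm by -0.50. Pgam2 rose by 0.57, but its call was lost without WT replicate 2 (0.44), WT replicate 3 (0.57) or Tnfaip2-/- replicate 2 (0.46), without the filter (0.55) and with DESeq2 (0.56). Of 13 genes of glycogen and gluconeogenesis tested, from 16 listed, 12 rose and 1 fell. Pygl, the liver-type glycogen phosphorylase, rose by 3.51 (SE 0.0716, adjusted p = 9.95e-38), Gbe1 by 0.87 and Pygm by 0.77, whereas Pck2 changed by -1.29.

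Of 13 genes of pyruvate entry into mitochondria, 3 rose (Pdk4 by 1.17, Pdk3 by 0.25, Pdha1 by 0.18) and 6 fell (69.2% called), among them Pdp2 at -0.38, Pdk2 at -0.36 and Pdp1 at -0.32. Against a 1.2-fold change, 1 gene of pyruvate entry rose and 1 fell. The call of Pdk2 was lost without Tnfaip2-/- replicate 3 (-0.27) and with DESeq2 (-0.36). Of 8 pentose phosphate genes, 3 rose (H6pd by 0.82, Rpe by 0.25, Taldo1 by 0.09) and 4 fell, among them Tkt at -0.68, Rpia at -0.35 and G6pdx at -0.35, while 1 rose and 2 fell against a 1.2-fold change. Of 16 tricarboxylic acid cycle genes, 5 rose, among them Sdha by 0.21 and Sucla2 by 0.18, and 6 fell (68.8% called, close to all tested genes as for pyruvate entry), among them Dlst at -0.45, Cs at -0.35 and Sdhd at -0.29. The number that rose was 3 without WT replicate 2, without Tnfaip2-/- replicate 2, with DESeq2 or without the filter, and against a 1.2-fold change 0 rose and 2 fell. Exons of other genes overlap those of Pfkfb2, Pdha1, Rpe and G6pdx over 13.6% to 17.9% of their bases, so reads of these could be mixed.

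**Figure D5:**
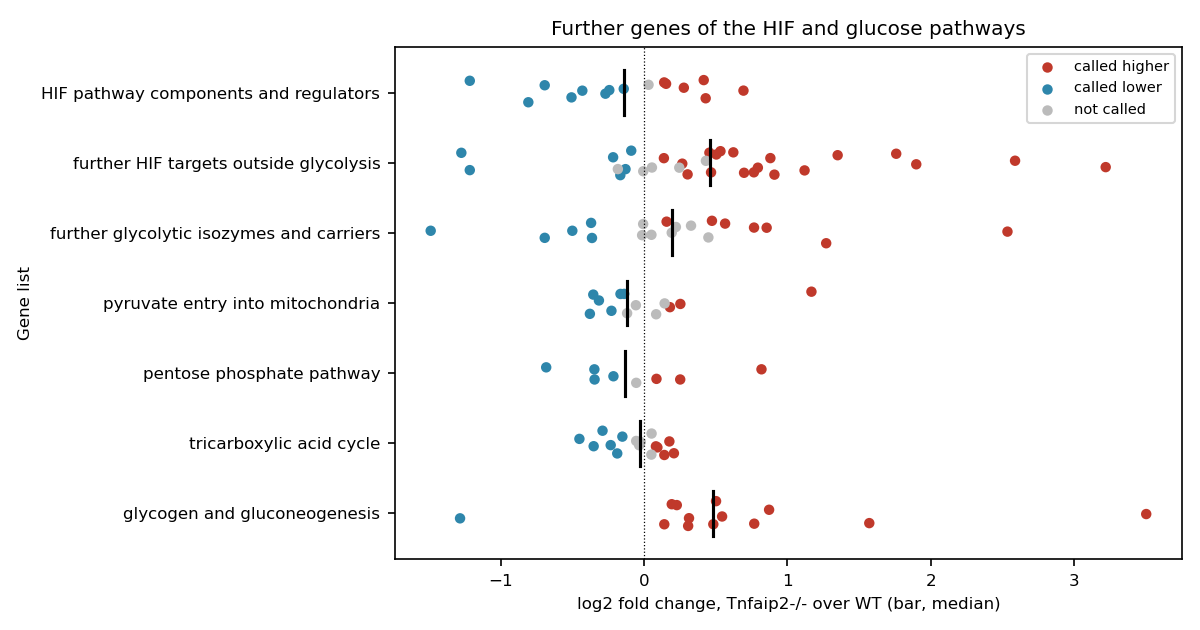
Log2 fold change (x axis) of each tested gene in 7 further lists, colored by call, with the median of each list as a black bar. Medians lie between -0.14 and 0.48.

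Many markers of cell state differed between genotypes as well. Called were 75% of tested endoderm markers, 75% of endothelium and primitive blood markers and 60% of fibroblast markers, near 67.7% for all tested genes. In the other marker lists the share called was 83.3% to 100%. Of 8 mesoderm and primitive streak markers, 7 fell and 1 rose, and they summed to 90.01, 89.2 and 88.6 CPM in WT EBs and 22.6, 20.04 and 24.4 CPM in Tnfaip2-/- EBs. Per kb of exon, T had the highest level of these in WT EBs (14.9 CPM per kb) and Eomes in Tnfaip2-/- EBs (4.44 CPM per kb). T, singled out after its values were seen, measured 34.2, 32.7 and 36.9 CPM in WT EBs and at most 0.22 CPM, or 5 counts, in Tnfaip2-/- EBs. Of 6 primed pluripotency markers, 5 fell, with sums of 1099, 1095 and 1090 CPM in WT EBs and 557, 550.4 and 554 CPM in Tnfaip2-/- EBs. Dnmt3b had the highest level per kb in WT EBs (117 CPM per kb) and Otx2 in Tnfaip2-/- EBs (52.8 CPM per kb). Of 10 naive pluripotency markers, 5 rose and 5 fell, with sums of 1090, 1089 and 1087 CPM in WT EBs and 1350, 1354 and 1370 CPM in Tnfaip2-/- EBs, and Zfp42 was highest per kb in both groups. Of 6 general pluripotency markers, 1 rose and 5 fell (0 and 3 against a 1.2-fold change), with sums of 2386, 2372 and 2362 CPM in WT EBs and 1779, 1795 and 1806 CPM in Tnfaip2-/- EBs. Pou5f1 was highest per kb in WT EBs (338 CPM per kb) and Utf1 in Tnfaip2-/- EBs (252 CPM per kb). Markers of pluripotency and of differentiation were thus measured in both groups, and no listed marker was at 0 in all 6 samples.

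Of 8 endoderm markers, 2 rose and 4 fell, with sums of 119, 119 and 117 CPM in WT EBs and 111, 108 and 110.5 CPM in Tnfaip2-/- EBs, and Dab2 was highest per kb in both groups. The number that rose was 1 without WT replicate 3 or without Tnfaip2-/- replicate 3, with DESeq2 or against a 1.2-fold change, and 2 fell against a 1.2-fold change. Of 5 neural ectoderm markers tested, 1 rose and 4 fell, and all 6 listed had sums of 175, 176.5 and 164 CPM in WT EBs and 131, 132 and 135 CPM in Tnfaip2-/- EBs, and Tubb3 was highest per kb in both. Of 4 endothelium and primitive blood markers tested, 2 rose and 1 fell, and all 8 listed had sums of 28.4, 28.7 and 27.0 CPM in WT EBs and 34.8, 37.9 and 40.5 CPM in Tnfaip2-/- EBs, and Pecam1 was highest per kb in both. Hbb-bh1 and Hba-x were at 0 outside WT replicate 2. Of 5 fibroblast markers tested, 1 rose (0 with DESeq2 or against a 1.2-fold change) and 2 fell, and all 6 listed had sums of 12.97, 13.7 and 12.6 CPM in WT EBs and 11.5, 11.4 and 11.9 CPM in Tnfaip2-/- EBs, and Thy1 was highest per kb in both. In these bulk samples, fewer cells of a type and less RNA per cell cannot be told apart. The part of cell state in the differences of the hypoxia and glycolysis genes was not tested.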

How the data were processed

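The authors deposited raw counts per gene, without normalization, for 6 EB samples sequenced as 51-base single-end reads. The submitters' processing notes name GRCm38, TopHat2 2.1.0 and featureCounts 1.5.0. The libraries were made with TruSeq RNA v2, which does not mark strand, so reads of overlapping genes on opposite strands cannot be told apart. Genes were matched by symbol or RefSeq synonym, and Aldoa, on 2 rows, was read from the row with the larger overlap of its RefSeq gene. Counts were filtered (minimum count 10, minimum total 15), scaled by TMM and compared with the quasi-likelihood test of edgeR 4.0.16 in R 4.3.3, with Benjamini-Hochberg adjustment over all tested genes and a threshold of 0.05. Each SE was the absolute log2 fold change over the root of F. DESeq2 1.42.0 was an alternative. The procedure was tested on simulated data in which only a small part of the genes differed. That test therefore does not cover data in which most genes are called, as here. Exon lengths came from GENCODE M21, and promoters from RefSeq. The members and lists were chosen with earlier results of these data known. Values by sample are given for 8 members chosen by name and for members with a log2 fold change of at least 0.5 in size. In each further list, up to 3 called genes per direction with a mean of at least 1 CPM are named, taken by size, except that some items are not reported here.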

Additional observations from a re-analysis of the deposited data

How the results depend on the processing

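Changes and calls were recomputed for 153 single genes, among them the 40 members but not single markers. The called counts and medians of lists and of all tested genes were recomputed as well. The alternatives were other size factors, no filter, DESeq2, the older edgeR fit and a test against a 1.2-fold change. Further alternatives took replicate numbers as a block or left out each sample in turn. Leaving aside the test against a 1.2-fold change, 509 of 521 alternative values for single members stayed on their side of the threshold, and no called member changed direction, whereas Eno2, Pfkfb4 and Car9, not called, changed sign in some. Against a 1.2-fold change, genes called across the whole table numbered 6682 in place of 12084, and 3406 were genes called higher across the whole table, and 2 members were called lower. It called 7 glycolytic enzymes higher and 1 lower, and 11 HIF targets outside glycolysis higher and 0 lower. The same test called 3 HIF pathway components higher and 5 lower, 2 further HIF targets lower, 4 further glycolytic genes higher, 1 gene of pyruvate entry higher and 1 lower, 1 pentose phosphate gene higher and 2 lower, 0 tricarboxylic acid cycle genes higher and 2 lower, 0 general pluripotency markers higher and 3 lower, 1 endoderm marker higher and 2 lower, and 0 fibroblast markers higher, since it requires a larger change. DESeq2 called 4 further glycolytic genes and 3 tricarboxylic acid cycle genes higher, with 1 endoderm and 0 fibroblast markers higher, and without the filter 3 tricarboxylic acid cycle genes were called higher. The median log2 fold change, all genes included, and those of the lists also moved. With upper quartile factors the medians were 0.22 for enzymes, 0.59 for HIF targets and 0.0288 for all genes, and with library totals 0.22, 0.59 and 0.0309. Without the filter they were 0.54 for HIF targets and 0.0156 for all genes, and DESeq2 gave 0.0287 for all genes. The cause was not tested. With each sample left out in turn, the median of HIF targets ranged from 0.54 to 0.57, that of all genes from -0.00571 to 0.00329, and the tricarboxylic acid cycle genes called higher from 3 to 5, and the endoderm markers called higher from 1 to 2. Without the 10 members that share at least 10% of their windows, chosen as an alternative after seeing the data, the median of HIF targets was 0.50 and its difference from enzymes 0.32, with 6 enzymes called higher in the shorter list. Same-numbered samples did not deviate together (correlations -0.0843, -0.0757 and -0.0818, against 0.015 to 0.064 for different numbers), no sample correlated best with its own number, and with the replicate block 11841 genes were called, with 29 members higher and 5 lower. Summing both Aldoa rows, also added after seeing the data, left 30 members called higher and 5 lower. At this depth, a count of 0 allows a level of up to 0.137 CPM.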
